A study of Mus musculus with 16 samples.

Results

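The cell proliferation genes are 36 mouse genes whose products copy DNA or carry a cell through mitosis, and they were read from the deposited gene counts of dorsal root ganglia (DRGs), the clusters of sensory nerve cell bodies beside the spinal cord. All 36 symbols matched a listed Ensembl identifier through the GENCODE M21 annotation of mm10, out of 52636 genes listed in all. The rule that picks the rows uses the symbols alone and no threshold on a measured value. A filter on low counts kept 21371 genes of the series, and 35 of the 36 members passed it. Kif11, the kinesin that pushes spindle poles apart, was the exception, with 0 to 4 counts in each library. The 16 libraries were each made from the L3-6 DRGs of 1 male C57BL/6J mouse aged 3 to 4 months, with 4 mice in each of 4 groups. SNI-Saline mice had a tibial spared nerve injury (SNI), in which the common peroneal and sural branches of the sciatic nerve are tied and cut, followed by saline injections. SNI-DMI mice had the same injury and received the tricyclic antidepressant desipramine (DMI), 15 mg/kg i.p. 2 times a day for 3 weeks. Sham-Saline and Sham-DMI mice had sham surgery and the same injections of saline or of DMI. Treatment began 4 weeks after surgery per the study's results text, while its methods text gives months in place of weeks. The sources do not say whether the ganglia came from the injured side alone.

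Proliferating cells copy their genome in S phase and divide it in mitosis. Before S phase the Mcm2 to Mcm7 ring is loaded onto DNA as an inactive helicase, which Cdc45 helps to start, while ribonucleotide reductase and thymidylate synthase supply the building blocks. Cyclins A and B then switch on the kinase Cdk1, the spindle is built and checked, and the anaphase-promoting complex ends mitosis by marking cyclin B for destruction. Most of these genes are switched on late in the cycle through promoter elements called CHR and CCAAT, and are held down in resting cells by the DREAM complex at the same elements. Adult sensory neurons no longer divide. The cells of an adult ganglion that can divide include macrophages, satellite glia, Schwann cells, endothelial cells and fibroblasts, and blood or marrow carried along in a dissection can add further dividing cells.

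Reads on genes ranged from 41194238 to 73920332 per library, so that the 3 counts used as a floor corresponded to 0.0406 to 0.0728 CPM, the count scaled by library size. Sensory neuron markers summed to 9720 to 12000 CPM in every library and spinal cord markers to 9.7 to 19.4 CPM. The sample labels name spinal cord in the tissue field and dorsal root ganglia in the cell type field. Of 8 markers of injured neurons, 7 were called higher in SNI-Saline than in Sham-Saline. All DMI libraries carry the numbers S17 to S24 and all saline libraries S33 to S40, with SNI-Saline and Sham-Saline in separate runs of numbers, so library order and treatment cannot be told apart. Fewer cells of a type and less RNA per cell cannot be told apart in these bulk samples.

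Promoter sequence was available from RefSeq (GRCm38.p6) for 31 of the 36 members, as 33 promoters of 250 bases before and 50 bases after a start site. Ccna2, Tpx2, Aurkb, Mcm4 and Kif20a had no entry. Each promoter was searched on both strands for the CCAAT box (CCAAT), the CHR element (TTTGAA or TTCGAA) and an E2F site (TTTCCCGC, TTTGGCGC, TTTCGCGC or TTTGCCGC). CCAAT was found in 29 of 33 member promoters (87.9%) and in 37.4% of all 32851 promoters in the table. A CHR element of either spelling was found in 22 of 33 (66.7%) and in 19.2% of all. E2F letters were found in 6 of 33 (18.2%) and in 2.26% of all. By role, among the 9 promoters of replication and nucleotide supply genes 4 held E2F letters and 3 a CHR, whereas among the 24 promoters of mitotic genes 2 held E2F letters and 19 a CHR. The E2F letters were in Mcm3, Mcm5, Mcm6 and Mcm7 and, among mitotic genes, in Cdk1 and Ncapg.

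The 200 bases before the start are shown for the members with the smallest p-values of any comparison below, 5′ to 3′ on the gene's own strand, with matches to these motifs on either strand in capitals. Top2a lies at chr11:99024190-99024389 (minus strand), Nusap1 at chr2:119618098-119618297, Prc1 at chr7:80294250-80294449 and Birc5 at chr11:117849037-117849236 (all plus strand).
Top2a: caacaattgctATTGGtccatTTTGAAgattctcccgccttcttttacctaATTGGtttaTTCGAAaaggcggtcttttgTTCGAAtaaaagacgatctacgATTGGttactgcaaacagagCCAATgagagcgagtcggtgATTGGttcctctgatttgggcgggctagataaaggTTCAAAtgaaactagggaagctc
Nusap1: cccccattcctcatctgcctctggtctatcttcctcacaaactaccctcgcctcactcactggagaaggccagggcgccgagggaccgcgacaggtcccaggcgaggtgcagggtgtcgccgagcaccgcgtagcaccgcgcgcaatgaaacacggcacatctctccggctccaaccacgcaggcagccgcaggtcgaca
Prc1: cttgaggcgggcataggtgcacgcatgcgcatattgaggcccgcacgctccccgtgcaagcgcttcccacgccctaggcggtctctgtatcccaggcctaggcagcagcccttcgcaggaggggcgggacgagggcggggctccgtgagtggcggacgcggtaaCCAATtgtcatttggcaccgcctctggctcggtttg
Birc5: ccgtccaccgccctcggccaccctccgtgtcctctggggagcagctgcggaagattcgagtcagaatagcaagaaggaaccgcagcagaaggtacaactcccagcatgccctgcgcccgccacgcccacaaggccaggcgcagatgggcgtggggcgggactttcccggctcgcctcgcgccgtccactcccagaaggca
Top2a held 6 CCAAT boxes and 4 CHR elements in its promoter, the CHR nearest to the start beginning at position -23 and the nearest CCAAT at position -58. Prc1 held a single CCAAT, and a TTTGAA that runs over the RefSeq start and so is not capitalised. Nusap1 and Birc5 held none of these letters in the window, and neither did Melk or Tyms. Exons of Nusap1 and Prc1, which begin after these windows, share positions with exons of Oip5 and Rccd1 on the opposite strand. A match is a description of the letters and not of binding.

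The members were low in DRG. On the per-length scale (CPM per kb of exon, median of 16 libraries), Mcm4 was the highest at 4.93, followed by Mcm7 at 2.7, Mcm6 at 2.18 and the mitotic kinase Aurka at 2.17. Mcm4 had a higher level than 60.7% of the tested genes, Mcm7 than 49.9% and the remaining 34 members than fewer. The lowest tested members were Cenpf, a kinetochore protein, at 0.0525, Ncapg, a condensin subunit, at 0.069, and the cyclin gene Ccnb1 at 0.0699 CPM per kb. Mki67, which encodes the proliferation marker Ki-67, stood at rank 19 with 0.473, and Top2a, which encodes the topoisomerase that untangles sister chromosomes, at rank 28 with 0.163. Along this order only Mcm4 against Mcm7 and Cenpf against Kif11 had ranges over the 16 libraries that did not overlap. All other neighbours overlapped. In plain CPM the 36 members summed to 110.0 to 142.0 in a library, of which the 7 replication licensing genes made up 55.5 to 66.4.

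**Figure D1:**
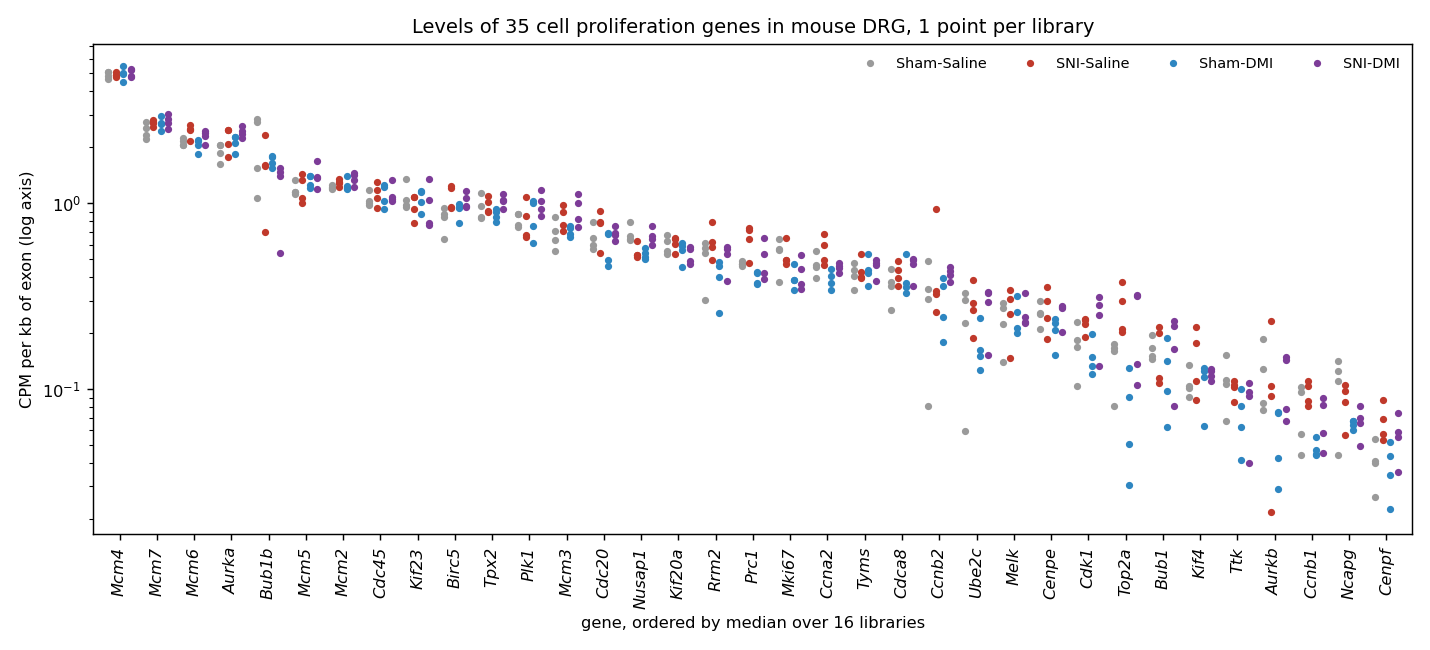
Level of 35 members in CPM per kb of exon (log axis), ordered by the median over 16 libraries, with 1 point per library and colours for the 4 groups (Kif11, at or near 0, is not drawn). Mcm4 lies apart at the top with a median of 4.93, Bub1b ranges from 0.538 to 2.84, and the groups overlap for most genes.

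Libraries differed from each other within groups. SNI-Saline replicate 2 held the highest value of all 16 libraries for 11 of the 35 tested members, and Sham-Saline replicate 3 the lowest for 9. After each member's log2 CPM was scaled to mean 0 and SD 1 over the libraries, the mean over members was 0.98 in SNI-Saline replicate 2 and -0.84 in Sham-Saline replicate 3 and in Sham-DMI replicate 3. The other Sham-DMI libraries lay at -0.43, -0.33 and -0.23, the other Sham-Saline libraries at 0.15, 0.21 and -0.087, the other SNI-Saline libraries at 0.094, 0.024 and 0.27, and the SNI-DMI libraries at 0.42, 0.011, 0.042 and 0.55. All 4 Sham-DMI libraries were thus below all 8 SNI libraries on this mean. SNI-Saline replicate 2 also had the highest summed CPM of macrophage, mature neutrophil and neutrophil precursor markers (263, 36.1 and 31.1 CPM), so the injury results under saline of the members named for that comparison are also given without it. Members did not all follow the same course over the libraries. Cenpf, Top2a, Ccnb2, Cdk1, Ccna2 and Rrm2 followed the mean of the other members most closely (Pearson's r from 0.838 down to 0.757 over 16 libraries), while Kif23 and Bub1b ran against it (r = -0.134 and r = -0.156). These r values are a description, since all members share the library's depth and composition.

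**Figure D2:**
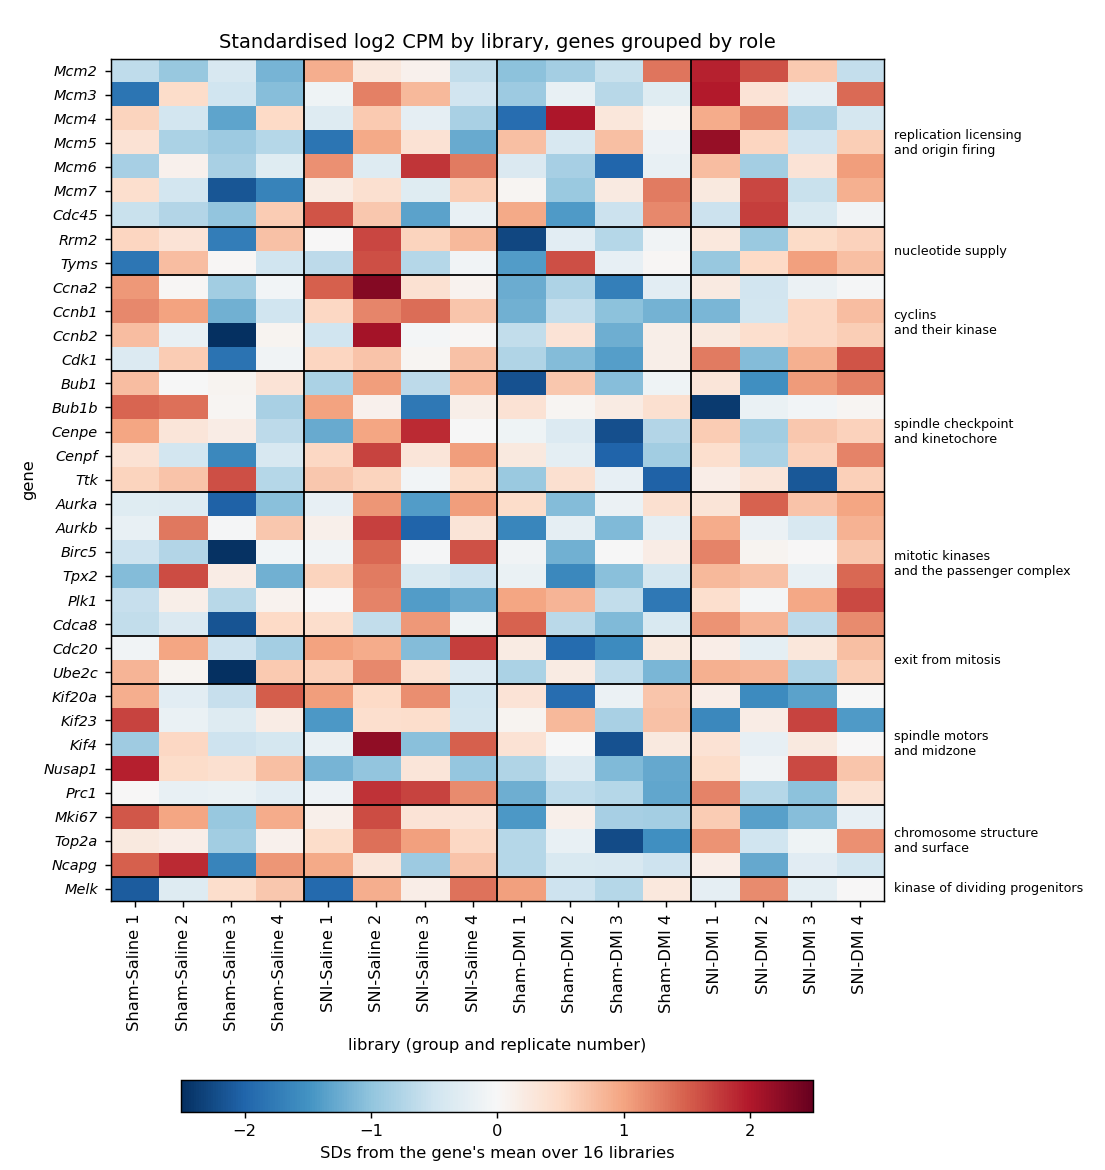
Standardised log2 CPM of 35 members (rows, grouped by role) in 16 libraries (columns, grouped by treatment); red is above and blue below the gene's own mean over the libraries, in SDs. SNI-Saline replicate 2 is red in all 4 genes of cyclins and their kinase and in all mitotic kinase genes but Cdca8, and each Sham-DMI library is blue in most rows.

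Among genes of chromosome structure, Top2a (chr11:98992943-99024189) measured 1.58, 1.5, 0.732 and 1.45 CPM in Sham-Saline replicates 1 to 4 and 1.83, 3.42, 2.68 and 1.91 CPM in SNI-Saline. It measured 0.82, 1.18, 0.275 and 0.457 CPM in Sham-DMI and 2.86, 0.949, 1.24 and 2.91 CPM in SNI-DMI. All SNI-Saline libraries were above all Sham-Saline libraries, and SNI-DMI split into 2 high and 2 low libraries of which the lowest was under the highest Sham-DMI library. The log2 fold change was 0.90 ± 0.384 (SE) for SNI-Saline versus Sham-Saline (adjusted p = 0.164) and 1.49 ± 0.407 for SNI-DMI versus Sham-DMI (adjusted p = 0.162), neither passing the threshold of adjusted p under 0.1 over all 21371 genes with edgeR on all libraries. On the 8 saline libraries alone the former passed with edgeR (0.91, adjusted p = 0.0415) and DESeq2 (adjusted p = 0.00388), and without SNI-Saline replicate 2 it was 0.71 (adjusted p = 0.366). Without Sham-DMI replicate 1 or SNI-DMI replicate 2 or 3 the difference between SNI-DMI and Sham-DMI passed (1.56, 1.73 and 1.67, with adjusted p of 0.0932, 0.0596 and 0.0934). DMI differences were -0.90 ± 0.412 under sham (adjusted p = 0.148, 0.0699 with DESeq2 on the 8 sham libraries, and 0.0464 without Sham-DMI replicate 2, at -1.29) and -0.31 ± 0.376 under SNI (adjusted p = 0.694). Top2a counts were 11 to 210 reads per library. The libraries of SNI-DMI with high Top2a, replicates 1 and 4, were also those with the highest macrophage marker sums of that group (239 and 193 CPM, against 144 and 125 CPM in replicates 2 and 3), and the part of these cells in the Top2a difference was not tested.

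Mki67 (chr7:135689784-135716361) measured 6.45, 5.72, 3.79 and 5.65 CPM in Sham-Saline and 4.76, 6.56, 5.0 and 4.98 CPM in SNI-Saline. In Sham-DMI it measured 3.42, 4.76, 3.9 and 3.88 CPM and in SNI-DMI 5.32, 3.48, 3.69 and 4.45 CPM. All Sham-DMI libraries were below 3 of the 4 Sham-Saline libraries, while Sham-Saline replicate 3 lay within the Sham-DMI range, so these groups overlapped. Mki67 fell by 0.43 ± 0.169 on the log2 scale with DMI under sham (adjusted p = 0.0883). Under SNI the DMI difference was -0.33 ± 0.168 (adjusted p = 0.298). The injury differences were -0.019 ± 0.167 under saline and 0.083 ± 0.17 under DMI, with 95% intervals from -0.35 to 0.31 and from -0.25 to 0.42. Ncapg, of condensin, measured 0.887, 1.0, 0.312 and 0.785 CPM in Sham-Saline and 0.427, 0.48, 0.475 and 0.457 CPM in Sham-DMI. Its value was lower in Sham-DMI than in 3 of 4 Sham-Saline libraries (log2 fold change -0.70 ± 0.296, adjusted p = 0.118), and Sham-Saline replicate 3 was below all of them. Without that library the difference was -0.93 and the adjusted p 0.0235, and with at least 10 counts required in every library the adjusted p was 0.0945.

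Prc1 (chr7:80294450-80316259), which bundles microtubules in the spindle midzone, measured 4.05, 3.88, 3.9 and 3.8 CPM in Sham-Saline and 3.93, 6.04, 5.9 and 5.26 CPM in SNI-Saline. It measured 3.07, 3.51, 3.45 and 3.03 CPM in Sham-DMI and 5.33, 3.45, 3.22 and 4.4 CPM in SNI-DMI. SNI-Saline replicate 1 was within the Sham-Saline range and the other 3 were above it, while all Sham-DMI libraries were below all Sham-Saline libraries. Prc1 rose by 0.44 ± 0.152 (log2) after injury under saline (adjusted p = 0.0929) but not past the threshold without SNI-Saline replicate 2 (0.37, adjusted p = 0.231). The call was also lost without any of the Sham-Saline libraries, SNI-Saline replicate 3 or 4, Sham-DMI replicate 3 or SNI-DMI replicate 4 (0.38 to 0.46). The injury difference under DMI was 0.33 ± 0.155 (adjusted p = 0.406), and the DMI differences were -0.37 ± 0.152 under SNI (adjusted p = 0.205) and -0.26 ± 0.155 under sham (adjusted p = 0.273). Exons of Prc1 share positions with Rccd1 on the other strand and the sources do not state whether strand was used in counting, so part of these reads may belong to Rccd1.

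Nusap1 (chr2:119618298-119651244), which stabilises microtubules around chromosomes, had a pattern of its own. It measured 3.22, 2.61, 2.59 and 2.72 CPM in Sham-Saline and 2.08, 2.13, 2.55 and 2.14 CPM in SNI-Saline. In Sham-DMI it measured 2.2, 2.33, 2.1 and 2.05 CPM and in SNI-DMI 2.61, 2.42, 3.08 and 2.7 CPM. All Sham-Saline libraries were above all SNI-Saline and all Sham-DMI libraries, and all SNI-DMI libraries were above all Sham-DMI libraries. Nusap1 fell by 0.36 ± 0.121 (log2) with DMI under sham (adjusted p = 0.0523). Its injury difference was -0.32 ± 0.12 under saline (adjusted p = 0.118, 0.0835 with DESeq2 on all libraries, 0.251 without SNI-Saline replicate 2, and 0.0792 without SNI-Saline replicate 3) and 0.31 ± 0.121 under DMI (adjusted p = 0.307), and its DMI difference under SNI was 0.28 ± 0.121 (adjusted p = 0.226). The difference between both DMI effects was 0.63 ± 0.171 (95% interval 0.30 to 0.97), with a nominal p of 0.00159 from edgeR's quasi-likelihood test and an adjusted p of 0.619. With trends in GC content and gene length removed, the DMI difference under sham was -0.17 and the adjusted p 0.367, so this call depended on that setting. Nusap1 exons share positions with Oip5 on the other strand, a limit that applies to these values as to Prc1. In all, 13 members share exon positions with another gene, so this limit is not particular to Nusap1 and Prc1. Among them are Ncapg (with Lcorl) and Ccna2 (with Exosc9), both on the other strand, and Top2a (with a snoRNA gene on its own strand). The remaining genes of this role, Kif4, Kif20a and Kif23, had no adjusted p under 0.1 in any comparison. Kif11 was at 0 counts in all 4 SNI-Saline libraries, which allows up to the floor of 3 counts per library, and no fold is given for it.

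Among mitotic kinases and the chromosomal passenger complex, Birc5 (chr11:117849251-117855743), which encodes survivin, measured 2.99, 2.89, 2.18 and 3.22 CPM in Sham-Saline and 3.21, 4.11, 3.24 and 4.22 CPM in SNI-Saline. It measured 3.21, 2.68, 3.25 and 3.36 CPM in Sham-DMI and 3.97, 3.29, 3.27 and 3.63 CPM in SNI-DMI. SNI-Saline lay above Sham-Saline except that its lowest library (3.21) was level with the highest Sham-Saline library (3.22). Birc5 rose by 0.39 ± 0.138 (log2) after injury under saline (adjusted p = 0.0969), and without SNI-Saline replicate 2 the value was 0.35 (adjusted p = 0.226). Birc5 also lost its call without Sham-Saline replicate 3 (0.30), replicate 1, 2 or 4 of the same group, replicate 1 or 4 of SNI-Saline, replicate 3 of Sham-DMI, or replicate 2, 3 or 4 of SNI-DMI, as well as with GC content and length trends removed (adjusted p = 0.154) and with edgeR on the 8 saline libraries (adjusted p = 0.114). Its other differences were -0.062 ± 0.137 for DMI under SNI, 0.14 ± 0.139 for DMI under sham and 0.18 ± 0.138 for injury under DMI, none passing. Aurkb, the kinase of the same complex, measured 0.226, 0.55, 0.249 and 0.377 CPM in Sham-Saline and 0.0854, 0.22, 0.125 and 0.221 CPM in Sham-DMI. These groups did not overlap, but Aurkb had only 4 to 42 reads per library and its log2 fold change of -1.08 ± 0.529 did not pass (adjusted p = 0.178). Tpx2, which activates Aurora A, measured 4.36, 3.71, 3.95 and 4.22 CPM in Sham-DMI and 4.86, 4.82, 4.35 and 5.22 CPM in SNI-DMI (log2 fold change 0.25 ± 0.116, adjusted p = 0.407). Those groups overlapped by a single library on each side. Aurka, Plk1 and Cdca8 had no adjusted p under 0.1 in any comparison.

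Of the cyclins and their kinase, Cdk1 measured 0.734, 0.659, 0.599 and 0.977 CPM in Sham-DMI and 1.41, 0.658, 1.24 and 1.54 CPM in SNI-DMI. SNI-DMI was above Sham-DMI in 3 of 4 libraries (log2 fold change 0.69 ± 0.261, adjusted p = 0.301). Ccna2, cyclin A2, measured 2.43, 2.79, 2.01 and 1.91 CPM in SNI-Saline and 1.95, 1.73, 1.83 and 1.87 CPM in SNI-DMI. SNI-DMI sat at or below the lower end of SNI-Saline, with overlap (log2 fold change -0.31 ± 0.145, adjusted p = 0.268). Ccnb1, cyclin B1, ranged from 0.187 to 0.435 CPM in Sham-Saline and from 0.188 to 0.233 CPM in Sham-DMI (-0.64 ± 0.321, adjusted p = 0.188), and its DMI difference under SNI was -0.47 ± 0.303 (adjusted p = 0.416). All 4 genes of this role had positive injury differences under saline (0.26 to 0.61) and under DMI (0.21 to 0.69), with none passing.

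At the kinetochore and the spindle checkpoint, Cenpf (chr1:189640606-189688086) measured 0.835, 0.621, 0.405 and 0.634 CPM in Sham-Saline and 0.888, 1.35, 0.819 and 1.07 CPM in SNI-Saline. The groups overlapped by 1 library, and the log2 fold change of 0.73 ± 0.275 did not pass with edgeR on all libraries (adjusted p = 0.117). It passed with at least 10 counts required in every library (adjusted p = 0.0971), with GC content and length trends removed (0.92, adjusted p = 0.0977) and with edgeR on the 8 saline libraries (adjusted p = 0.079). It also passed without SNI-Saline replicate 3, Sham-DMI replicate 1 or 3, or SNI-DMI replicate 2 (0.73 to 0.83), and was 0.58 without SNI-Saline replicate 2 (adjusted p = 0.289). Bub1b, the checkpoint protein BubR1, measured 12.1, 11.7, 6.64 and 4.57 CPM in Sham-Saline and 9.98, 6.79, 3.0 and 6.89 CPM in SNI-Saline. It measured 7.55, 6.61, 7.09 and 7.69 CPM in Sham-DMI and 2.3, 6.02, 6.28 and 6.59 CPM in SNI-DMI. Sham-DMI was narrow and the other groups were wide, and SNI-DMI lay wholly below Sham-DMI (log2 fold change -0.45 ± 0.342, adjusted p = 0.623). Bub1, Cenpe and Ttk had no adjusted p under 0.1 in any comparison. Cdc20 and Ube2c, which serve the anaphase-promoting complex, had positive injury differences (0.21 and 0.31 under saline, 0.24 and 0.69 under DMI) that did not pass.

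**Figure D3:**
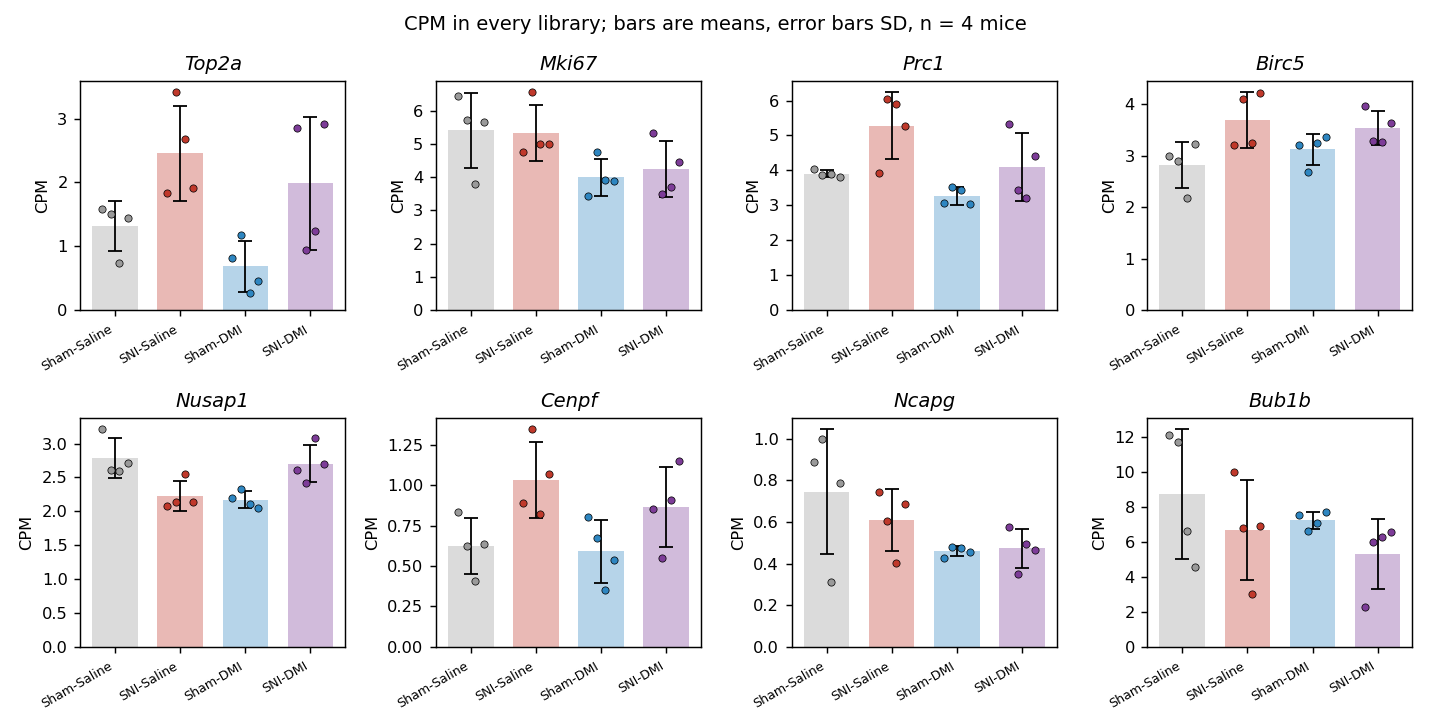
CPM of 8 members in every library (points), with group means (bars from 0) and SD (error bars, n = 4 mice per group). Top2a in SNI-Saline lies wholly above Sham-Saline, Nusap1 in SNI-Saline and in Sham-DMI lies wholly below Sham-Saline, and Bub1b ranges from 2.3 to 12.1 CPM.

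The replication licensing genes differed little between groups. The CPM sum of Mcm2 to Mcm7 and Cdc45 was 55.5 to 59.6 for Sham-Saline and 60.5 to 63.2 for SNI-Saline, which did not overlap. It was 58.8 to 62.9 for Sham-DMI and 59.6 to 66.4 for SNI-DMI, which did. These sums are levels with no test. Mcm4, the highest member, measured 16.2 to 19.6 CPM over all libraries, with log2 differences from -7.3e-05 to 0.029 in the 4 comparisons and 95% intervals within -0.13 to 0.15. Mcm6 measured 9.62, 10.5, 9.64 and 10.1 CPM in Sham-Saline and 11.6, 10.1, 12.4 and 11.8 CPM in SNI-Saline. SNI-Saline was higher in 3 of 4 libraries, and the log2 fold change of 0.20 ± 0.0844 did not pass with edgeR (adjusted p = 0.159, and 0.113 without SNI-Saline replicate 2, at 0.27). With DESeq2 it passed on all libraries (adjusted p = 0.0753) and on the 8 saline libraries (adjusted p = 0.0861). Mcm3 measured 2.48, 2.83, 2.57 and 2.76 CPM in Sham-DMI and 4.2, 3.11, 2.8 and 3.78 CPM in SNI-DMI (0.38 ± 0.154, adjusted p = 0.329), and the groups overlapped by 1 library on each side. Mcm5 had a DMI difference under SNI of 0.21 ± 0.128 (adjusted p = 0.384), with values from 3.99 to 5.75 CPM in SNI-Saline and from 4.77 to 6.74 CPM in SNI-DMI. Rrm2 and Tyms of nucleotide supply, and Melk, a kinase of dividing progenitor cells, had no adjusted p under 0.1 in any comparison.

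SNI-Saline versus Sham-Saline asks what injury did in mice without drug. With edgeR Prc1 and Birc5 rose and no member was called lower, out of 35 tested. DESeq2 on all libraries called Mcm6 higher (0.21, adjusted p = 0.0753) and Nusap1 lower (-0.31, adjusted p = 0.0835) as well. In edgeR's fit the fold changes of Cenpf and Top2a were larger than those of the called genes, with larger errors. Over all tested genes 5.85% were called higher and 6.18% lower, and the members' count of 2 in 35 is near that background. At the cut-offs named in the study's methods (a log2 change of 0.32 or more in size with a nominal p under 0.05) 4 members were higher, namely Prc1, Birc5, Cenpf and Top2a, and none lower, against 3.64% and 3.51% of all genes. The median log2 fold change was 0.14 over the members and -0.0006 over all genes, and 25 of 35 members were on the higher side. Top2a and Nusap1 were the 2 members whose groups did not overlap, in opposite directions, beside 15.4% of all genes. Without SNI-Saline replicate 2, and likewise without any single Sham-Saline library, SNI-Saline replicate 4 or SNI-DMI replicate 4, no member was called, and without SNI-Saline replicate 1, Sham-DMI replicate 3 or SNI-DMI replicate 3 a single member was. The median was 0.096 without SNI-Saline replicate 2. Macrophage markers moved in the same comparison, with 6 of 12 called higher (Tyrobp, Cd68, C1qb, C1qc, C1qa and Aif1), a median of 0.56, and summed CPM of 154 to 263 in SNI-Saline (154 to 183 without replicate 2) against 121 to 142 in Sham-Saline, and the part of macrophages in the member differences was not tested.

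SNI-DMI versus SNI-Saline asks what the drug did in injured mice. No member passed the threshold with edgeR's quasi-likelihood test, and DESeq2 also called 0. At a nominal p under 0.05 there were 3 of 35 (Prc1 and Ccna2 lower, Nusap1 higher), against 18.5% of all genes. The share of all genes called was 1.32% higher and 1.61% lower. By the study's cut-offs 1 member was lower, Prc1, and none higher, against 3.8% and 1.93% of all genes. The median was -0.046 over members and -0.0047 over all genes, with 15 members on the higher and 20 on the lower side, and it was 0.06 without SNI-Saline replicate 2. No member had groups that did not overlap, against 13.3% of all genes. Mature neutrophil markers were lower in this comparison for 7 of 7 tested, with Retnlg and S100a8 called and a median of -1.43. Their summed CPM was 4.67 to 10.5 in SNI-DMI against 12.6 to 36.1 in SNI-Saline. Red cell precursor markers were lower for 12 of 13 tested, with none called (median -0.56). The part of these cells in the members' values was not tested.

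Sham-DMI versus Sham-Saline asks what the drug did without nerve injury. Nusap1 and Mki67 fell and no member rose. Among all genes 11.6% were called higher and 11.9% lower, so 2 of 35 members called is below the share of genes in general. By the study's cut-offs 4 members were lower (Nusap1, Mki67, Ncapg and Top2a) and none higher, against 7.57% and 3.93% of all genes. The median was -0.11 over members and -0.021 over all genes, and 22 of 35 members were on the lower side, including all 4 of cyclins and their kinase, all 5 of the spindle checkpoint and kinetochore and all 3 of chromosome structure. The 7 replication genes had a median of 0.051, with 6 on the higher side. Of the 6 genes of mitotic kinases and the passenger complex, 4 were on the higher side as well (median 0.1). The groups of Nusap1, Aurkb and Prc1 did not overlap, all with Sham-DMI lower, beside 17.1% of all genes. Neither gene was called when replicate 1 of Sham-Saline or replicate 1, 3 or 4 of Sham-DMI was left out, nor with GC content and gene length trends removed. Nusap1 alone was called when replicate 2 or 4 of Sham-Saline, 1 or 4 of SNI-Saline, or 3 or 4 of SNI-DMI was left out. Ncapg was called as well without Sham-Saline replicate 3, and Top2a without Sham-DMI replicate 2. Mature neutrophil markers moved in the same direction here: 5 of 7 tested were called lower (Retnlg, S100a8, Mmp8, Csf3r and S100a9), with summed CPM of 4.3 to 10.3 in Sham-DMI against 9.4 to 27.0 in Sham-Saline, and 12 of 13 red cell precursor markers were on the lower side with none called (median -0.55). All 12 macrophage markers were on the lower side too, with Mrc1 called. These lists were also mostly on the lower side with DMI under SNI, where no member was called. Of the 8 markers of injured neurons 5 were called higher in Sham-DMI, with sums of 73.4 to 118 CPM against 55.3 to 65.0. The part of these cells in the member differences was not tested.

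SNI-DMI versus Sham-DMI asks what injury did in drug-treated mice. No member passed with edgeR, against 0.374% of all genes called higher and 0.0281% called lower, while DESeq2 on all libraries called Top2a. At a nominal p under 0.05 there were 6 of 35 (Top2a, Cdk1, Nusap1, Mcm3, Prc1 and Tpx2), all higher in SNI-DMI, against 12.1% of all genes. By the study's cut-offs 4 were higher, namely Top2a, Cdk1, Mcm3 and Prc1, against 4.07% of all genes, and none lower, against 1.34%. The median over members was 0.21, against 0.00071 over all genes, and 32 of 35 members were on the higher side. Leaving out any single library kept this median between 0.15 and 0.23. Kif20a, Kif23 and Bub1b were the 3 on the lower side. Nusap1, higher, and Bub1b, lower, were the members whose groups did not overlap, beside 5.04% of all genes. Macrophage markers summed to 125 to 239 CPM in SNI-DMI and 96.7 to 135 CPM in Sham-DMI, with 0 of 12 called and a median of 0.60, and their part was not tested. This comparison shares no library with SNI-Saline versus Sham-Saline, in which the members with the largest log2 fold changes were Top2a (0.90), Cenpf (0.73) and Ccnb2 (0.61), while here they were Top2a (1.49), Aurkb (0.94) and Ube2c and Cdk1 (0.69 each).

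**Figure D4:**
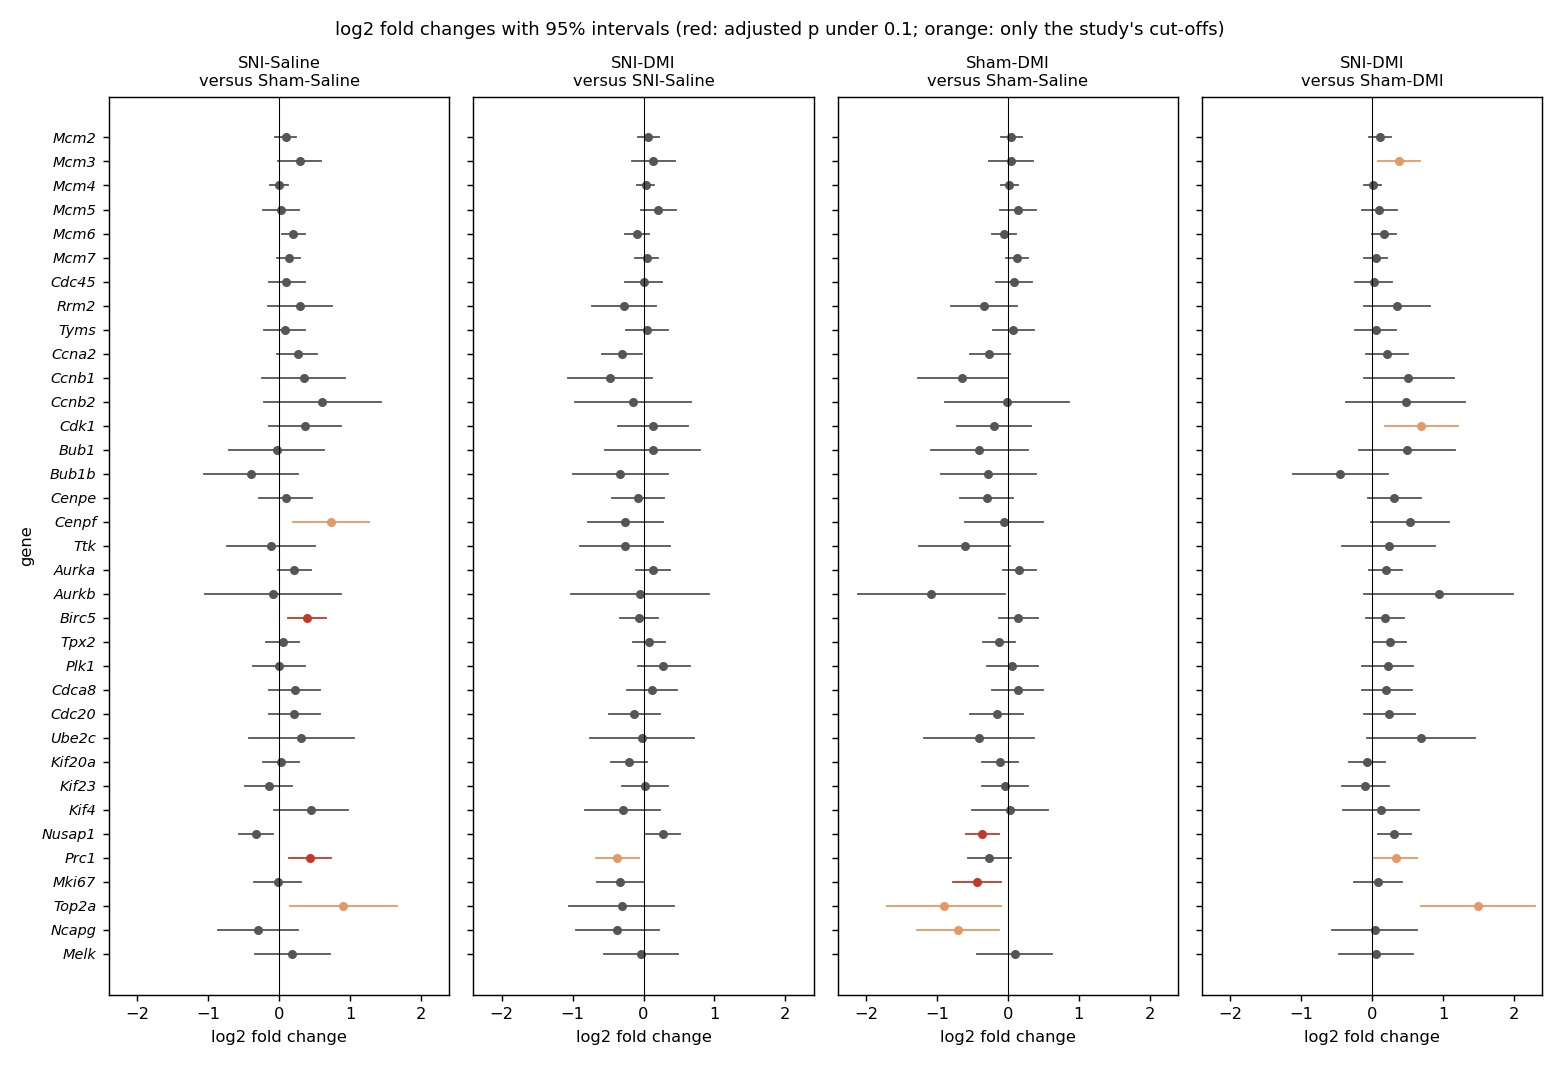
log2 fold change (points) with approximate 95% intervals (lines, from the SE and a normal approximation) of 35 members in 4 comparisons. Red marks an adjusted p under 0.1, orange the study's cut-offs without it, and grey neither. Most intervals cross 0, injury differences lie mostly to the right of 0 under DMI (32 of 35), and Aurkb, Top2a and Ccnb2 have wide intervals while those of Mcm2, Mcm4 and Mcm7 are narrow.

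Whether the drug effect differed between injured and sham mice was tested directly. No member and no gene of the series passed (0.0% of 21371 with edgeR, and no member with DESeq2), and the single member with a nominal p under 0.05 was Nusap1, against 7.92% of all genes. Over the members this difference had a median of 0.029. The comparisons share control libraries, since each of the 4 groups serves in several of them, so a library that stands apart moves more than 1 comparison.

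A further 98 genes of the cell cycle, arranged in 7 lists, were read in the same fits, and 97 were tested. In SNI-Saline versus Sham-Saline 5 were called higher and 2 lower, against 5.85% and 6.18% of all genes. Cdkn2a, which encodes the cell-cycle brakes p16 and p19Arf, rose from 2.14 to 3.89 CPM on average (log2 fold change 0.86 ± 0.153, adjusted p = 0.00753), and it also rose in SNI-DMI versus Sham-DMI, from 2.63 to 4.55 CPM (0.78 ± 0.151, adjusted p = 0.0371), as the only gene of the 97 called there. Cdkn3, a phosphatase that acts on cyclin-dependent kinases, rose by 0.58 ± 0.14 after injury under saline (adjusted p = 0.0273), and Lin54, the subunit of DREAM that binds the CHR, fell by 0.26 ± 0.0778 (adjusted p = 0.0548). Spc25 and Ndc80 of the kinetochore and the brake Cdkn2d also rose in that comparison, and the retinoblastoma gene Rb1 fell.

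Under DMI in injured mice 1 of the 97 was called higher and 2 lower, against 1.32% and 1.61% of all genes. Pttg1, securin, rose by 0.32 ± 0.0711 (adjusted p = 0.063), while Ncapg2, of condensin II, fell by 0.37 ± 0.104 (adjusted p = 0.0949) and Spc25 fell by 0.79 ± 0.229 (adjusted p = 0.0991). Under DMI in sham mice 5 were called higher and 16 lower, against 11.6% and 11.9% of all genes. Ncapg2 fell by 0.61 ± 0.104 (adjusted p = 0.00212), Pttg1 rose by 0.41 ± 0.0714 (adjusted p = 0.0023) and Rb1 fell by 0.49 ± 0.0919 (adjusted p = 0.00322). Of the G1 and S cyclins and kinases Ccne1 and Cdk4 rose and Ccnd2, Ccne2, Cdk2 and Cdk6 fell, so that list moved both ways. The medians over the 97 were 0.065 for injury under saline, -0.073 for DMI under SNI, -0.034 for DMI under sham and 0.033 for injury under DMI. In the list of further mitotic spindle and kinetochore genes the medians over 21 tested were 0.15, -0.21, -0.18 and 0.23 in the same order, with 2 higher, 1 lower, 1 lower and 0 called.

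Of the other cells a ganglion holds, Schwann cell markers had a median of 0.26 after injury under saline and fibroblast markers one of -0.27 with DMI under sham, with none called in any comparison. T and natural killer cell markers had medians of 0.80 and 0.82 after injury under saline and under DMI, also with none called. Among endothelial and pericyte markers Tek and Flt1 were called lower with DMI under sham, and among satellite glia markers Fabp7 was called higher with DMI under sham and under SNI. Their part in the member differences was not tested.

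Mki67 was set against the summed CPM of 6 marker lists over the 16 libraries, with Benjamini-Hochberg adjustment over the 6 relations. Members and lists were chosen with earlier results of these data known, and the p-values make no allowance for that choice. Against mature neutrophil markers Pearson's r was 0.78 (permutation p = 0.00034, adjusted 0.00204) and Spearman's rho 0.826 (permutation p = 0.00012, adjusted 0.00072), and r was 0.683 without the 2 libraries farthest from the median. Within the 8 saline libraries r was 0.833 (exact permutation p = 0.00937) and within the 8 DMI libraries 0.215 (exact permutation p = 0.615). The permutations over 16 libraries do not keep the groups apart, and the exact permutations within 8 libraries do not keep sham and SNI mice apart. For mature neutrophils r of the deviations from the 4 group means was 0.576, given with no test. Against red cell precursor markers r was 0.686 (permutation p = 0.00394, adjusted 0.00788) and rho 0.638 (p = 0.00894 by permutation, adjusted 0.0179), and r was 0.601 without the 2 farthest libraries. Within saline r was 0.985 (exact permutation p = 0.000223) and within DMI 0.222 (exact permutation p = 0.593), and r of the deviations from group means was 0.578. Neutrophil precursors gave r = 0.679 (permutation p = 0.00378, adjusted 0.00788) and rho = 0.641 (permutation p = 0.00875, adjusted 0.0179), with r = 0.685 without the 2 farthest, 0.856 within saline (exact permutation p = 0.00756) and -0.0929 within DMI (exact permutation p = 0.83), and r of the deviations from group means was 0.491. For these 3 lists r was 0.833 to 0.985 among saline mice, and no relation was detectable among DMI mice, where mature neutrophil sums covered 4.3 to 10.5 CPM and red cell precursor sums 28.7 to 115 CPM. Whether r differed between saline and DMI mice was not tested. Mki67 itself had r = 0.589 with the mean of the other members over the 16 libraries, and relations of the other members to these lists were not tested.

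Against macrophage markers r was 0.428 (permutation p = 0.1, adjusted 0.12) and rho 0.385 (permutation p = 0.141, adjusted 0.169), and r was 0.129 without the 2 farthest libraries, 0.324 within saline (exact permutation p = 0.421) and 0.474 within DMI (exact permutation p = 0.235). Satellite glia gave r = -0.519 (permutation p = 0.039, adjusted 0.0585) and rho = -0.515 (permutation p = 0.0439, adjusted 0.0659), with r = -0.389 without the 2 farthest, -0.925 within saline (exact permutation p = 9.92e-05) and 0.0383 within DMI (exact permutation p = 0.927). B-cell precursor markers, of whose sum Ebf1 made up 96.7%, gave r = 0.239 (permutation p = 0.368, adjusted 0.368) and rho = 0.103 (permutation p = 0.704, adjusted 0.704), with r = -0.158 without the 2 farthest, 0.138 within saline (exact permutation p = 0.753) and 0.0892 within DMI (exact permutation p = 0.847). The r of deviations from group means, with no test, was 0.474 for macrophages, -0.382 for satellite glia and 0.237 for B-cell precursors. For macrophages it was thus close to the 0.491 of neutrophil precursors. The lists are sums in which a few genes weigh most: S100a9 made up 42.4% of the mature neutrophil sum and Ms4a3 39.1% of the neutrophil precursor sum.

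**Figure D5:**
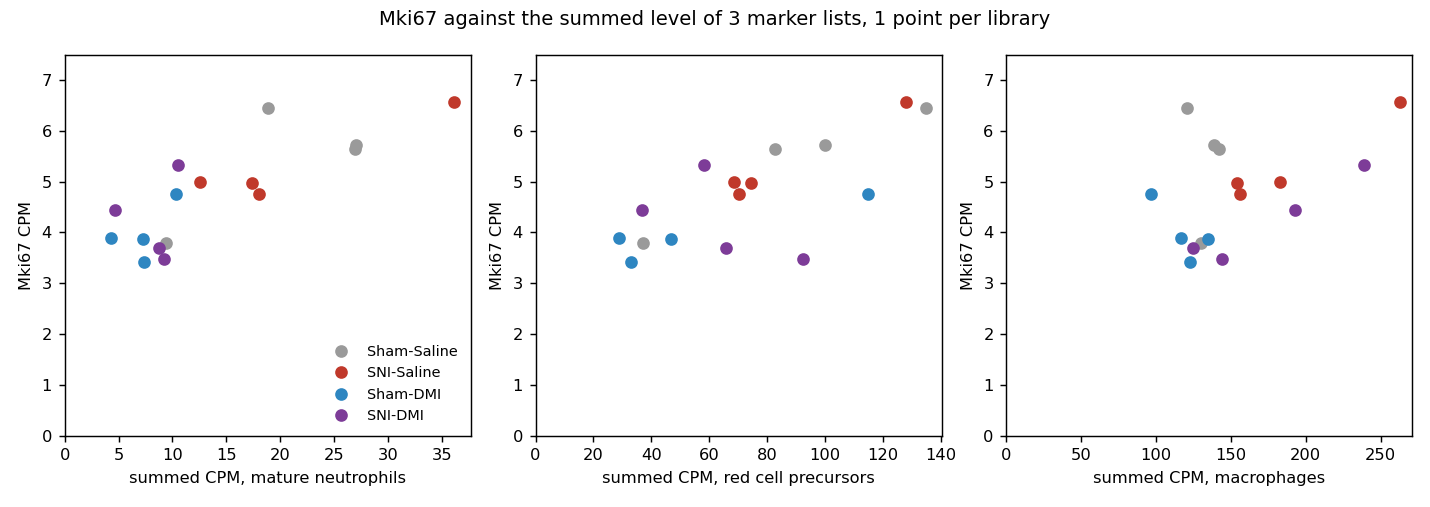
Mki67 CPM against the summed CPM of mature neutrophil, red cell precursor and macrophage markers, with 1 point per library and colours for the 4 groups. Mki67 is highest (6.56 and 6.45 CPM) where red cell precursor sums are highest (128 and 135 CPM), and the DMI libraries crowd at mature neutrophil sums of 4.3 to 10.5 CPM.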

How the data were processed

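The deposited files hold raw counts per Ensembl gene, 1 file per library, which the authors made from reads aligned to mm10 (NGS-Data-Charmer pipeline); HISAT2, HTSeq and DESeq2 are named in the submitters' processing notes without a role. The library kit was stranded; whether counting used strand, and the annotation release, are not given in the sources used here. The 5 summary lines of each file, 18.83% to 20.44% of reads, were left out. From the counts, edgeR 4.0.16 (filterByExpr, TMM, quasi-likelihood test, 1 coefficient per group, all 16 libraries) gave fold changes and Benjamini-Hochberg adjusted p over 21371 genes; a call is an adjusted p under 0.1. CPM use TMM library sizes and log2 CPM a prior count of 2. The steps were tested on simulated data. The members and lists were chosen with earlier results of these data known. Named genes are Mki67, Top2a and the 6 members with the smallest p of each comparison, and for the further cell-cycle lists the 3 genes with the smallest p. Bub1b was added after its values were seen, as were the further called cell-cycle genes. Alternatives were DESeq2 1.42.0, upper-quartile scaling, other count filters, removal of GC and length trends with mgcv 1.9.3, a replicate block, fits on 8 libraries and leaving out each library. Replicate libraries of a group differed beyond sampling noise (chi-square per gene at least 10.4). Correlations used 100000 permutations, or all pairings for 8 libraries.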

Additional observations from a re-analysis of the deposited data

Results flagged for a closer look

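Within 140 groups of 4 libraries (35 members in 4 groups), 10 held a library far from the other 3 on the log2 scale, and chance flags about 1 in 20 groups. Mki67 in SNI-Saline replicate 2 was 6.56 CPM against 4.76 to 5.0 in the others. Top2a in Sham-Saline replicate 3 was 0.732 CPM against 1.45 to 1.58, and Rrm2 in the same library was 0.841 against 1.51 to 1.69. Bub1b in SNI-DMI replicate 1 was 2.3 CPM against 6.02 to 6.59, Cenpe in SNI-DMI replicate 2 was 1.75 against 2.37 to 2.41, and in SNI-DMI replicate 3 Ube2c was 0.396 against 0.769 to 0.871 and Ttk 0.198 against 0.453 to 0.528. Kif4 in Sham-DMI replicate 3 was 0.35 CPM against 0.645 to 0.717, Nusap1 in SNI-Saline replicate 3 was 2.55 against 2.08 to 2.14, and Mcm5 in Sham-Saline replicate 1 was 5.32 against 4.5 to 4.62. Nusap1 was lower in all SNI-Saline than in all Sham-Saline libraries and higher in all SNI-DMI than in all Sham-DMI libraries; the difference of 0.63 (log2) between these effects had an adjusted p of 0.619 with edgeR, and from 0.28 to 0.766 over 7 alternatives.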

How the results depend on the processing

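For SNI-Saline versus Sham-Saline the count of called members was 2, and it was 0 with no filter on low counts, 1 with the replicate block (Birc5), 0 with the block and GC and length trends removed, 4 with DESeq2 on 16 libraries (Nusap1 lower, the others higher) or on 8 and 4 at the study's cut-offs, and from 0 to 3 on leaving out each library. For SNI-DMI versus SNI-Saline it was 0, and 1 at the study's cut-offs. For Sham-DMI versus Sham-Saline it was 2, and 0 with no filter, 0 with GC and length trends removed, 0 with the block and these trends, 0 with edgeR on 8 libraries, 4 at the study's cut-offs, and from 0 to 3 on leaving out each library. For SNI-DMI versus Sham-DMI it was 0, and 1 with no filter, 1 with DESeq2 on 16 libraries, 4 at the study's cut-offs and from 0 to 1 on leaving out each library. For the difference between both DMI effects it was 0, and 1 at the study's cut-offs. Some settings also gained calls. For SNI-Saline versus Sham-Saline, requiring at least 10 counts in every library added Cenpf to Prc1 and Birc5. In that comparison edgeR on the 8 saline libraries called Prc1, Cenpf and Top2a but not Birc5. For Sham-DMI versus Sham-Saline, that filter added Ncapg to Nusap1 and Mki67, and DESeq2 on 8 libraries added Top2a to them. The cause of these changes was not tested. Mki67's injury difference under saline was -0.019 and turned to 0.078 with GC and length trends removed and to 0.092 with the block as well, with -0.14 to 0.087 on leaving out each library; under DMI it ranged from -0.039 to 0.19. Without the 2 farthest libraries r of Mki67 with B-cell precursors turned from 0.239 to -0.158 and with macrophages moved from 0.428 to 0.129. Of 689 values of named members under alternatives, 609 kept direction and side of the threshold, 49 lost and 22 gained the call and 9 turned direction. The deviations of libraries with the same replicate number correlated weakly at most (r from -0.0813 to 0.184, over 0.1 in 5 of 24 pairs). Such values cannot settle whether the numbers pair the mice. The replicate block changed no other count than that given. Fits on 8 libraries do not exist for the difference between both DMI effects. Low counts limit Kif11, Aurkb and Ccnb1 most, with 0 to 4, 4 to 42 and 8 to 29 reads per library, and why they were low was not tested.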

Other observations

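The genes outside the list whose log2 CPM followed the mean standardised level of the 35 tested members most closely over the 16 libraries were Glt8d1 (Pearson's r 0.865), the Fc receptor gene Fcgr4 (0.864), AW112010 (0.85), Ncf1, a subunit of the phagocyte NADPH oxidase (0.85), and Gpr65 (0.843). Further genes among the 15 most alike were H2-Q7 (0.837), Irf7 (0.834), Fdxacb1 (0.831), Col9a3 (0.831), H2-Q4 (0.83), H2-K1 (0.823), 4632411P08Rik (0.821), Rab32 (0.817) and Cd52 (0.816). These values are given as a description with no test, and the points share library depth and composition. No gene of the further cell-cycle lists was among these 15.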
